A study of Mus musculus with 8 samples.

Results

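Dmp1-high osteoblasts were cells of the mouse bone stroma that held large amounts of osteocalcin messenger RNA together with the message of Dmp1, a phosphoprotein of the mineralised matrix. They were selected on measured values: among cells with 500 to 6000 detected genes and at most 25% of UMIs (unique molecular identifiers, 1 for each captured transcript molecule) from mitochondrial genes, a member had at least 100 UMIs of Bglap and Bglap2 per 10000 UMIs of the cell, fewer than 40 per 10000 of the cartilage genes Acan, Hapln1 and Matn3, and at least 3 Dmp1 UMIs. This gave 1084 members of 45328 cells, or 2.39%. The 3531 cells that met the first 2 conditions but held fewer than 3 Dmp1 UMIs are called Dmp1-low osteoblasts, and both classes together are called Bglap-high osteoblasts.

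The cells came from droplet-based single-cell RNA sequencing of stromal cells from the femur of female C57BL/6 mice aged 12 weeks. By the study's methods, the suspensions were prepared like those of its other stromal libraries, for which cells of the blood lineages and cells with CD45 or CD117 were removed on beads. In the Fracture group the left leg had been broken by 3-point bending at 10 weeks of age under ketamine and xylazine, an intramedullary nail had been inserted, carprofen had been given against pain, and bone was taken at day 14 after fracture. The Control group was wild-type, unfractured and of the same age, so surgery, nail and drugs cannot be told apart from the break itself. The labels number 2 samples in each group and give each of them 2 libraries; the libraries of a numbered sample were summed, and the sum, called a preparation here, was used as the replicate (n = 2 per group). The study describes its replicates as independent, but which animals, and how many, went into each is not given in the sources used here, so the p-values measure only the spread between these sums, which may be technical.

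Osteoblasts secrete the collagen matrix of bone and control its mineralisation, and those that become buried in it mature into osteocytes. Dmp1, Phex and Mepe are switched on late in this course: Dmp1 is a matrix protein that binds mineral, Phex is a membrane endopeptidase that restrains the phosphate-regulating hormone Fgf23, and Mepe is a matrix phosphoglycoprotein that is studied as a regulator of mineralisation. Sost, a secreted inhibitor of Wnt signalling, and Fgf23 are markers of mature osteocytes, while Bglap and Bglap2 encode osteocalcin, the most characteristic non-collagen protein of the mature osteoblast.

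The 8 libraries held 56543151 to 89126291 UMIs in the deposited tables, and summing the members gave 3452994 to 7042142 UMIs per preparation. Members were deeper in Control, with medians of 20759 to 26488 UMIs per cell in the 4 libraries, than in Fracture, where the medians lay between 11744 and 15623. All kept cells together ran the other way, with medians of 7170 to 8685 in Control libraries and 10640 to 12708 in Fracture libraries. Any 2 libraries shared at most 23 cell barcodes, and 0 members shared a barcode with a member of another library. Droplets also take up free RNA, so levels are set beside those of 4884 endothelial cells (at least 5 UMIs of Cdh5 and Emcn together, below the osteocalcin limit), a cell type that should lack the genes of osteoblasts. Some compared genes were higher in endothelial cells than in all kept cells together. For these genes the endothelial level is not a measure of free RNA alone.

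The number of members was 315 in Control-1, 176 in Control-2, 278 in Fracture-1 and 315 in Fracture-2. Within Bglap-high osteoblasts the share of Dmp1-high cells was 19.4% in Control-1 (95% Clopper-Pearson interval 17.5 to 21.4, counting error only) and 19.2% in Control-2 (16.7 to 21.9). It was 28.7% in Fracture-1 (25.9 to 31.7) and 28.5% in Fracture-2 (25.8 to 31.2). Both Fracture preparations lay above both Control preparations, with 28.6% ± 0.207 against 19.3% ± 0.144 (SD, n = 2 per group), a gap of 9.31 percentage points. The 2-sided exact permutation test gave p = 0.33, which is the smallest p that 2 against 2 preparations can give. The deeper Control cells had the better chance of reaching 3 Dmp1 UMIs, and when every cell was thinned to 5000 UMIs (leaving out 13 Control and 6 Fracture members, and 299 Control and 21 Fracture Dmp1-low cells, too shallow to thin) the shares were 7.04% and 8.43% in Control and 17.1% and 15.6% in Fracture.

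Among all kept cells the share of members was 2.47% in Control-1, 2.22% in Control-2, 2.34% in Fracture-1 and 2.46% in Fracture-2, and the groups overlapped (2-sided exact permutation p = 1). The Dmp1-low cells numbered 1309 in Control-1, 741 in Control-2, 689 in Fracture-1 and 792 in Fracture-2, of 12755, 7921, 11867 and 12785 kept cells. The groups overlapped in the raw count. As a part of all kept cells, Dmp1-low cells were more common in both Control preparations than in either Fracture preparation.

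**Figure D1:**
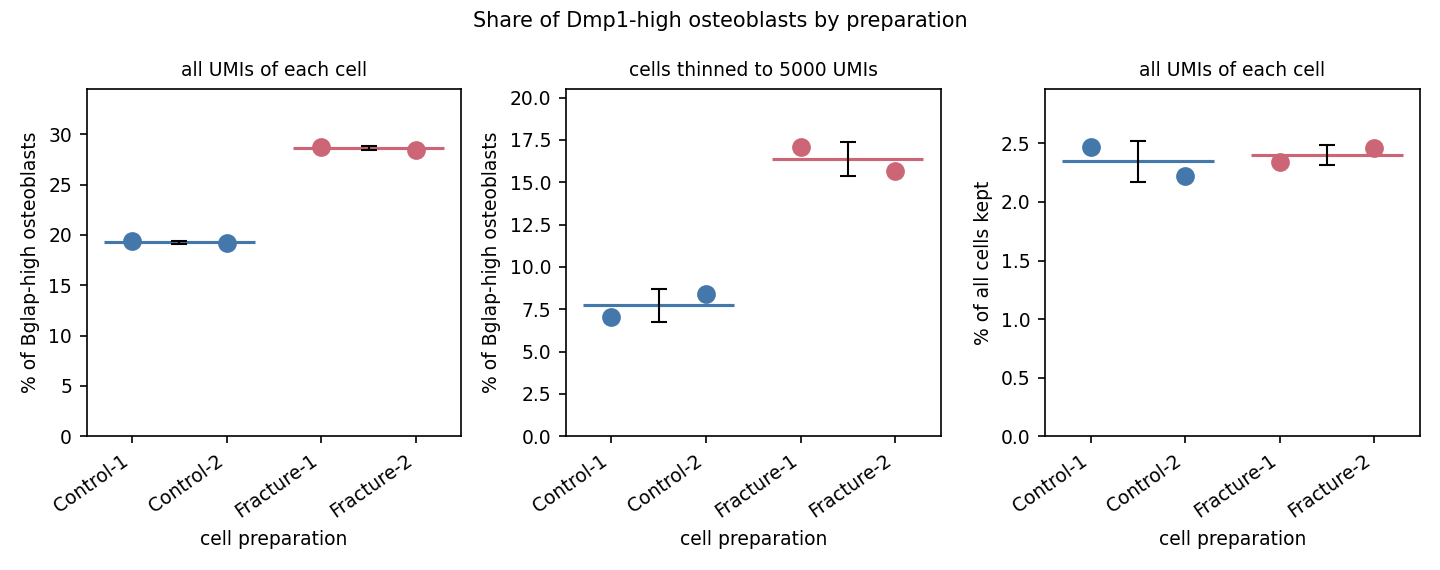
Share of Dmp1-high osteoblasts in each of the 4 cell preparations, as a percentage of Bglap-high osteoblasts with all UMIs (left), after thinning to 5000 UMIs (middle) and as a percentage of all kept cells (right); points are preparations, horizontal lines group means and black bars the SD of 2 preparations. Fracture lies above Control in the first 2 panels (28.6% against 19.3% at full depth) and the groups overlap in the third.

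Dmp1 counts were spread widely among the members. The median was 7 Dmp1 UMIs in Control-1 and Fracture-1 and 8 in Control-2 and Fracture-2, and 382 of the 1084 members held 10 or more. The highest cell held 207 in Control and 96 in Fracture. At the limit itself, 188 members had exactly 3 Dmp1 UMIs and 362 cells just outside had 2. In Control the 86 cells with 3 UMIs had 344 CPM (UMIs of the gene per 1000000 UMIs of the cells summed) of Phex and 9.80 of Mepe, and the 174 cells with 2 UMIs had 304 and 8.14. In Fracture the corresponding levels were 168 of Phex and 4.72 of Mepe with 3 UMIs against 165 and 5.20 with 2. Cells on either side of the limit thus had similar levels of both genes, most of all in Fracture.

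The label of these cells was checked against its other markers. Col22a1, a collagen found at tissue junctions (chr15:71795795-72034227 in GRCm38, minus strand), was found in 98.4%, 98.9%, 98.9% and 97.5% of members of Control-1, Control-2, Fracture-1 and Fracture-2. Its level was 504, 509, 435 and 422 CPM in members against 516, 495, 443 and 443 CPM in Dmp1-low osteoblasts, so Col22a1 did not set the 2 classes apart. Phex (chrX:157162075-157415312, minus strand) was found in 94.3% and 94.9% of Control members and in 68.3% and 73.7% of Fracture members, against 1.72% to 7.25% of endothelial cells, whose median depth per preparation was lower. Phex was higher in members than in Dmp1-low osteoblasts in all 4 preparations, by 0.38 and 0.63 on the log2 scale in Control and by 0.14 and 0.24 in Fracture.

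Mepe went against the label in part. This gene (chr5:104325329-104338611, plus strand) was found in 14.9% and 17.6% of Control members and in 3.24% and 3.49% of Fracture members, while 0 to 0.366% of endothelial cells held it. Its level in members was 17.2, 19.2, 3.19 and 3.24 CPM in Control-1, Control-2, Fracture-1 and Fracture-2, against 6.95, 6.96, 3.77 and 1.66 CPM in Dmp1-low osteoblasts, so Fracture-1 had less in members than in the other class. The 3 richest cells held 42.1% to 46.4% of the Mepe UMIs in each preparation.

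Sost and Fgf23, the markers of mature osteocytes, were nearly absent. Sost was found in 8 of 491 Control members and 3 of 593 Fracture members, and 0.22% to 0.43% of endothelial cells per preparation also held it. Fgf23 had 0 UMIs in members, which allows a share of up to 0.611% of Control and 0.506% of Fracture members with a UMI. The podoplanin gene Pdpn, a marker of the young osteocyte, was found in 28.3%, 23.9%, 25.2% and 23.2% of members of the 4 preparations. It was found in 31.5%, 29.7%, 20.2% and 20.7% of Dmp1-low cells, so Pdpn did not mark the members. The osteocyte marker Ptprz1 was found in 62.5%, 66.5%, 27.0% and 28.6% of members and 41.2%, 41.0%, 19.7% and 21.0% of Dmp1-low cells. Irx5 was found in 73.3%, 67.6%, 44.2% and 46.3% of members and 64.2%, 57.4%, 45.3% and 43.4% of Dmp1-low cells. Ackr3 was found in 9.21%, 5.68%, 11.2% and 9.52% of members, but in 15.1% to 25.6% of endothelial cells. Members were deeper than Dmp1-low cells, and these rates were not thinned. After thinning as above, Ptprz1 was found in 34.1%, 32.4%, 13.8% and 14.1% of members and 22.4%, 18.6%, 11.5% and 11.9% of Dmp1-low cells. Irx5 was then found in 41.0%, 28.9%, 21.8% and 26.3% of members and 38.5%, 28.0%, 27.9% and 26.0% of Dmp1-low cells. Ptprz1 thus stayed more common in members in each preparation. For Irx5 the Control gaps narrowed, and it was less common in members of Fracture-1. With such mixed markers the members are named here by their rule, as Dmp1-high osteoblasts.

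The RefSeq promoter windows (GRCm38.p6, 250 bases before to 50 after an annotated start) of 3 genes that define or mark these cells are shown, because at least 1 window of each holds the core letters ACCACA or, on the other strand, TGTGGT, which the osteoblast factor Runx2 and its relatives are known to bind. Capitals mark these letters, sequences run 5′ to 3′ along the gene, and of all 32851 windows 16.8% held at least 1 match. RefSeq gives Dmp1 a pair of windows. The one shown has a match starting at position -164 from the start, and the other (chr5:104197325-104197624, plus strand) has 0 matches. The matches start in the Mepe window at -118 and -80 and in the Bglap window at -132. The windows of Phex, Ptprz1 and Ibsp had 0 matches, and 1 of a pair of windows of Spp1 had a match, at -128. A match in these letters is a description of the sequence and not a measured binding site.
Dmp1, chr5:104202367-104202666, plus strand: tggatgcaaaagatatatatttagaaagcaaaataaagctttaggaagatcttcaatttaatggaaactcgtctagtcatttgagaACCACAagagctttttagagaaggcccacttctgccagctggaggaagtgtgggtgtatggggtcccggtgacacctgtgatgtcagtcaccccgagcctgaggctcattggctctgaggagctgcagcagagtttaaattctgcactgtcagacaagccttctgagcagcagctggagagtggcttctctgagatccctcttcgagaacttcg
Mepe, chr5:104325079-104325378, plus strand: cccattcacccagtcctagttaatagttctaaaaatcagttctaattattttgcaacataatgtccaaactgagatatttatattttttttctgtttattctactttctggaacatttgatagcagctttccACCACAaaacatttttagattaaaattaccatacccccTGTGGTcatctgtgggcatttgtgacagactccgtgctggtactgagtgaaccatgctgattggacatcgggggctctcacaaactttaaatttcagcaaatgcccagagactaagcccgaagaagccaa
Bglap, chr3:88384417-88384716, minus strand: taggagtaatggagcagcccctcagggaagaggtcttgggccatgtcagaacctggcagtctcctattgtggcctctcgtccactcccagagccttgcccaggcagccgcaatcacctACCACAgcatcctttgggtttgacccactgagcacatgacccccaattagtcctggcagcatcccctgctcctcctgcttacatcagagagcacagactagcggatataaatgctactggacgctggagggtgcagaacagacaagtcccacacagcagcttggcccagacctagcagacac

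Within Bglap-high osteoblasts, several genes were higher at the top than at the bottom of the Dmp1 range, which is given as a description because the same cells were split by it. In Control, Phex went from 287 CPM in cells with 0 Dmp1 UMIs through 326 with 3 to 5 to 620 with 20 or more. In Fracture it was 172, 186 and 249 CPM at the same steps, but 151 CPM with 10 to 19, so the order there was not steady. Ptprz1, a receptor tyrosine phosphatase of osteoblasts and the nervous system, went from 58.9 to 204 CPM in Control and from 30.4 to 108 CPM in Fracture between the lowest and the highest step. Spp1, which encodes the matrix protein osteopontin, went from 513 to 2082 CPM in Control and from 1974 to 5462 CPM in Fracture. Bglap stayed between 71961 and 81120 CPM in Control and between 39995 and 51491 CPM in Fracture, and Col22a1 between 482 and 524 and between 412 and 445 CPM. Alpl, the alkaline phosphatase of mineralising cells, was lower at the top step, with 486 against 348 CPM in Control and 674 against 477 CPM in Fracture.

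**Figure D2:**
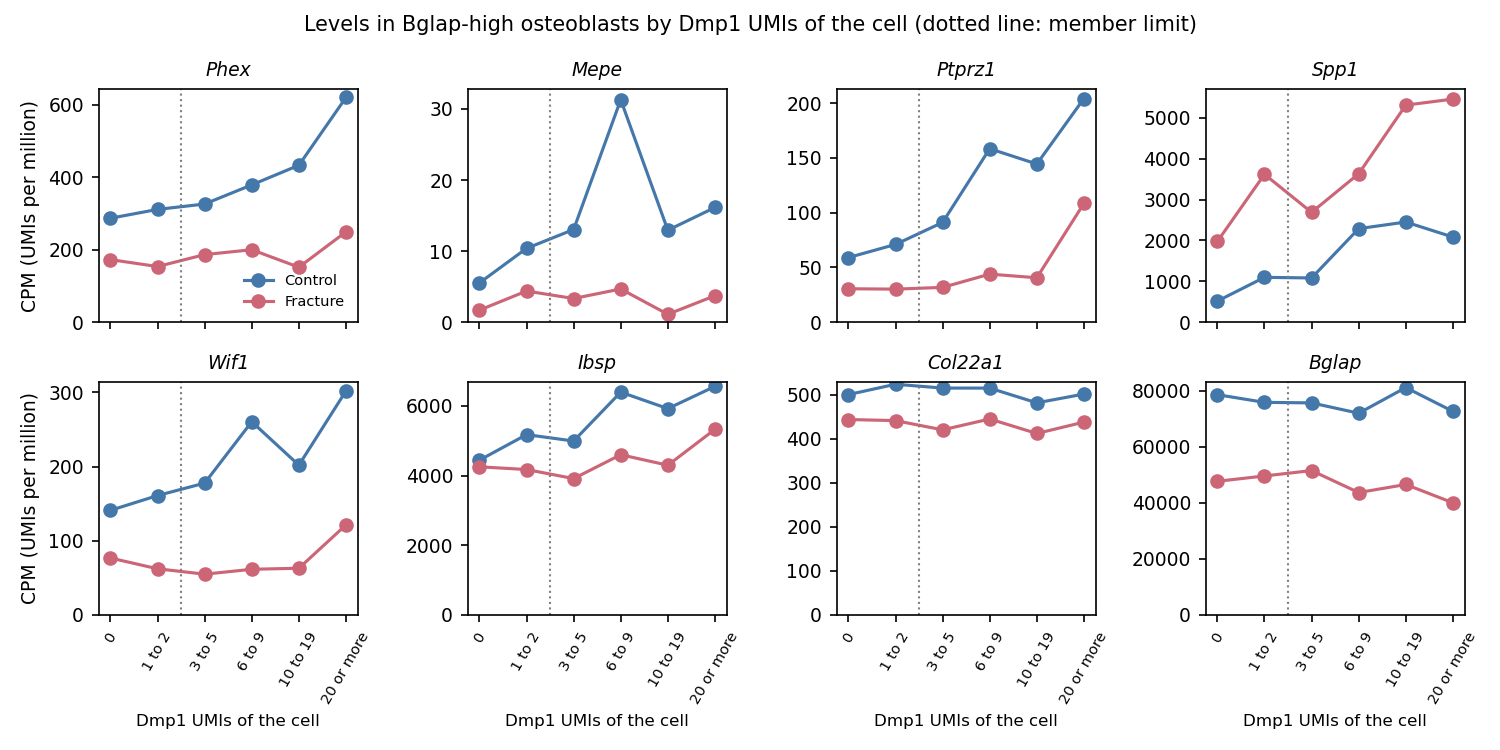
CPM of 8 genes (vertical axes, starting at 0) in Bglap-high osteoblasts grouped by the Dmp1 UMIs of the cell (horizontal axis), with the UMIs of all cells of a group at a step summed; blue is Control, red is Fracture and the dotted line is the member limit. Phex, Ptprz1 and Spp1 end higher than they start in both groups (Phex 287 to 620 CPM in Control), while Col22a1 stays between 412 and 524 CPM.

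Genes with a mean of at least 20 CPM that were higher in members than in Dmp1-low osteoblasts in each preparation were ranked by the mean log2 difference, and Dmp1 itself was followed by Spp1, Emp1, Phlda1, Bhlhe40, Socs3, Ptprz1, Ppap2a, Sema7a and Atf3. Spp1 was 2152 against 913 CPM in Control-1, 1284 against 332 in Control-2, 4346 against 2834 in Fracture-1 and 3638 against 2306 in Fracture-2. Atf3 and Socs3, which respond to stress and to cytokines, were also on this list, with Socs3 at 56.1 against 38.7 CPM in Control-1 and 580 against 315 CPM in Fracture-1. In the other direction the mean differences were widest for Col3a1, the fibrillar collagen of loose connective tissue, at -1.29 on the log2 scale, and for the chemokine gene Cxcl12 at -1.26, followed by Nkd2, Igfbp5 and Igfbp4, each lower in members in 4 of 4 preparations.

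Not every cell with Dmp1 was a member. Another 203 Control and 768 Fracture cells had at least 3 Dmp1 UMIs but less osteocalcin than the rule asks, with median Bglap and Bglap2 levels of 13.0 and 8.92 UMIs per 10000 for Control and of 3.75 and 4.11 for Fracture. In these cells Dmp1 was 1395 and 2315 CPM in Control and 1234 and 1394 CPM in Fracture, against 546, 619, 838 and 779 CPM in members. Phex was 510 and 601 CPM in Control and 220 and 253 CPM in Fracture, against 420, 387, 185 and 195 CPM in members. Mepe was 88.7 and 323 CPM in Control and 58.4 and 70.6 CPM in Fracture, above the members in each preparation. Sost was 22.5 and 34.0 CPM in Control, where members had 0.710 and 2.74 CPM, and 1.27 and 3.55 CPM in Fracture, where members had 1.16 and 0.463 CPM. Ibsp, the bone sialoprotein gene, was 16928 and 21801 CPM in Control and 16931 and 21860 CPM in Fracture, against 4128 to 6137 CPM in members. Mmp13, a collagenase of hypertrophic cartilage and of osteoblast-lineage cells, was 2834 to 7152 CPM in them and 72.6 to 162 CPM in members. Col10a1, a collagen gene known from hypertrophic cartilage, was 3108 and 1570 CPM in Control and 9260 and 9053 CPM in Fracture. Members held 8.67 to 518 CPM of it. Spp1 was 49179 to 73562 CPM in these cells and 1284 to 4346 CPM in members. Of these cells 108 were also above the cartilage limit and 23 met the endothelial rule, so they are a mixed group. Dmp1, Phex and Mepe were thus higher outside the members in all 4 preparations. For Sost this was clear in Control only, since in Fracture the levels were low on both sides and members with 20 or more Dmp1 UMIs held 5.56 CPM, from 6 UMIs.

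**Figure D3:**
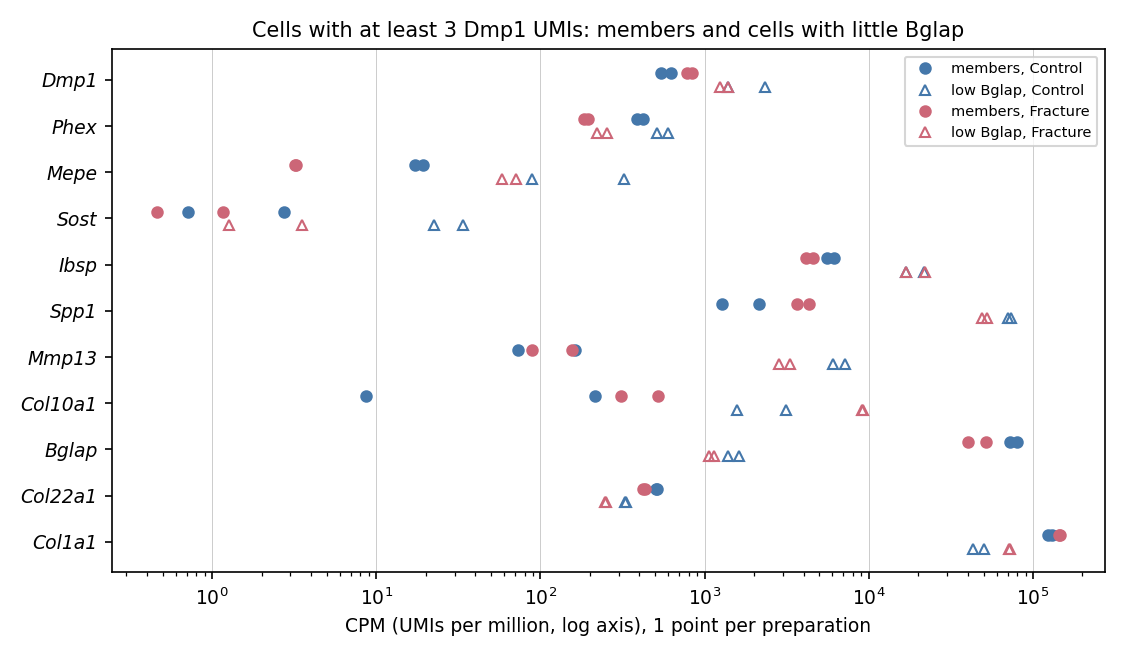
CPM on a log axis of 11 genes in cells with at least 3 Dmp1 UMIs, 1 point per preparation; filled circles are members, open triangles cells below the osteocalcin limit, blue Control and red Fracture. Mepe, Ibsp, Spp1, Mmp13 and Col10a1 lie further right in the triangles (Mepe 58.4 to 323 CPM against 3.19 to 19.2). So do Dmp1 and Phex when each preparation is compared with itself. Bglap, by rule, and Col1a1 lie further right in the circles.

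To compare members between the groups, their UMIs were added up within each preparation. The quasi-likelihood test of edgeR with Benjamini-Hochberg adjustment was applied to Fracture over Control. The study describes a callus and newly formed bone at day 14. Whether Fracture members came from there was not tested, so a change below is a difference between groups of cells. Of 10574 genes tested, 460 (4.35%) were called at an adjusted p under 0.05; 320 (3.03%) rose and 140 (1.32%) fell. The median log2 change of all genes tested was -0.005. Phex, Mepe, Vdr and H2-D1 were among those that fell, and early response, collagen-modifying and protease genes among those that rose. Levels below are TMM-normalised CPM in the order Control-1, Control-2, Fracture-1, Fracture-2, and changes are log2 fold changes of Fracture over Control with the standard error (SE) of the fit. When either Fracture preparation was left out, 0 genes were called with the other, by an adjusted p from a fit in which the lone preparation is assumed to vary like the Control ones; 1435 genes without Fracture-1 and 1574 without Fracture-2 had an unadjusted p under 0.05.

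Phex and Mepe fell in members. Phex was 397, 388, 187 and 207 CPM. Both Fracture preparations were well below both Control preparations, and the change was -0.99 (SE 0.09, edgeR adjusted p = 0.0119). Mepe was 16.3, 19.2, 3.22 and 3.45 CPM, a change of -2.39 (SE 0.22, edgeR adjusted p = 0.0126) that rests on 205 Control and 25 Fracture UMIs. With every cell thinned to 5000 UMIs before the members were chosen, the changes were -1.47 for Phex and -4.11 for Mepe. That choice kept 102 and 66 Control and 161 and 171 Fracture members, so these changes are for a smaller set of cells. The thinned Mepe value rests on few Fracture UMIs. When the full-depth members were thinned, 1.45% of Fracture-1 and 0.641% of Fracture-2 members held Mepe. Col22a1, at 477, 510, 440 and 448 CPM, had a change of -0.15 that did not pass (SE 0.08, edgeR adjusted p = 0.314). Dmp1, which chose the cells, was 516, 620, 847 and 828 CPM, and Bglap, also part of the rule, was 68659, 80051, 40492 and 55028 CPM; these are described without a test.

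Of 15 tested osteocyte-related genes 4 fell, namely Mepe, Phex, Ptprz1 and Ramp1, and 0 rose, with a median log2 change of -0.50. Ptprz1 was 141, 116, 53.3 and 46.5 CPM, with a change of -1.37 (SE 0.14, edgeR adjusted p = 0.0155). It was found in 62.5% and 66.5% of Control members and in 27.0% and 28.6% of Fracture members, and after thinning to 5000 UMIs in 34.1%, 32.4%, 13.8% and 14.1%, so the gap was present at equal depth. Ramp1, which pairs with the calcitonin receptor-like receptor, was 514, 502, 370 and 373 CPM, a change of -0.45 (SE 0.07, edgeR adjusted p = 0.0386). The Ramp1 call was lost in 4 of 11 alternatives, namely the replicate block, both stricter Dmp1 limits and thinning. The 4 genes were at or below 19.6, 0.597, 3.58 and 47.1 CPM (Phex, Mepe, Ptprz1 and Ramp1) in endothelial cells.

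Some receptors for hormones and growth factors fell. Of 14 tested genes of the parathyroid hormone, vitamin D and growth factor list 4 fell and 0 rose, although the list's median change was 0.02. Vdr, the vitamin D receptor, was 161, 167, 78.8 and 68.7 CPM, with a change of -1.16 (SE 0.10, edgeR adjusted p = 0.0126). Ghr, the growth hormone receptor, was 67.0, 57.6, 29.6 and 29.0 CPM, a change of -1.09 (SE 0.12, edgeR adjusted p = 0.0191). The Ghr call was lost after thinning (change -1.14, edgeR adjusted p = 0.0575). The fibroblast growth factor receptor gene Fgfr2 changed by -0.84 and the oestrogen receptor gene Esr1 by -1.05 (edgeR adjusted p = 0.0298 and 0.0467), and in neither did the groups overlap. The Esr1 call was lost in 6 of 11 alternatives (DESeq2, the replicate block, both stricter Dmp1 limits, the stricter osteocalcin limit and thinning) and the Fgfr2 call in 2, the stricter osteocalcin limit and thinning. Lifr, a receptor chain for leukaemia inhibitory factor, was 909, 1053, 489 and 508 CPM, a change of -0.98 (SE 0.10, edgeR adjusted p = 0.0155).

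The Wnt list moved in both directions, with 2 of 19 tested genes rising and 2 falling. Wif1, a secreted Wnt inhibitor, was 244, 165, 76.7 and 65.2 CPM, a change of -1.53 (SE 0.21, edgeR adjusted p = 0.0282). Lrp4, a co-receptor that presents sclerostin, was 364, 395, 168 and 184 CPM, a change of -1.10 (SE 0.09, edgeR adjusted p = 0.0105). The genes that rose were low: Dkk3, a Dickkopf family member, was 2.82, 4.11, 19.03 and 19.4 CPM and the frizzled receptor gene Fzd2 1.07, 0.457, 7.03 and 4.92 CPM. Among 26 tested genes of bone morphogenetic protein and TGF-beta signalling, Bmp3, an antagonist of bone formation made by osteoblasts, fell from 210 and 233 to 99.3 and 108 CPM (change -1.09, SE 0.10, edgeR adjusted p = 0.0126), and 2 rose.

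The list of early osteoblast genes had 7 falls and 2 rises among 15 tested genes, with a median of -0.46. Tnc, which encodes the adhesion-modulating protein tenascin C, was 158, 129, 33.4 and 48.2 CPM, a change of -1.81 (SE 0.21, edgeR adjusted p = 0.0211). The Tnc call was lost with the stricter osteocalcin limit (edgeR adjusted p = 0.0739). In endothelial cells of the Fracture preparations Tnc was 81.8 and 61.7 CPM, above the members. Limch1, a gene of the actin cytoskeleton, was 44.9, 26.5, 7.61 and 5.66 CPM, a change of -2.44 (SE 0.32, edgeR adjusted p = 0.0265). Runx2 (181, 207, 180 and 185 CPM) and Sp7 (284, 221, 224 and 240 CPM), the transcription factors that set the osteoblast lineage, overlapped between the groups, with changes of -0.09 and -0.12 (edgeR adjusted p = 0.653 and 0.655).

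Matrix genes had 6 rises and 0 falls among 24 tested, with a median of 0.33, and 3 of the 6 were above their endothelial level in both Fracture preparations. Spp1 was 2035, 1285, 4394 and 3868 CPM, a change of 1.31 (SE 0.23, edgeR adjusted p = 0.0469). Endothelial cells of the Fracture preparations held 3070 and 2291 CPM of Spp1 and those of Control 323 and 336 CPM, so free RNA of this gene also moved with the groups, and its part in the change was not tested. The Spp1 call was lost with library-size scaling alone, with either stricter Dmp1 limit, with the stricter osteocalcin limit and after thinning. Col5a1, a minor fibrillar collagen with little endothelial signal (114 CPM at most), was 493, 520, 726 and 753 CPM, a change of 0.55 (SE 0.08, edgeR adjusted p = 0.0292). The main bone collagens were high in every preparation. Col1a1, at 116797, 130586, 146003 and 154319 CPM, had a change of 0.28 and Col1a2, at 83482, 89586, 123184 and 126935 CPM, a change of 0.53, and neither passed (edgeR adjusted p = 0.466 and 0.170). Ibsp, at 5247, 6143, 4174 and 4886 CPM, changed by -0.33 and did not pass either (edgeR adjusted p = 0.216).

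Of 24 tested genes that modify or process collagen, 9 rose and 0 fell, and in both Fracture preparations 7 of the 9 were higher in members than in endothelial cells. P4ha2, a collagen prolyl 4-hydroxylase subunit, was 78.3, 72.0, 186 and 186 CPM, a change of 1.31 (SE 0.09, edgeR adjusted p = 0.00701). Pcolce, an enhancer of the enzyme that trims procollagen, was 493, 481, 990 and 1053 CPM, a change of 1.07 (SE 0.08, edgeR adjusted p = 0.00729). P4ha1 changed by 0.74 and Plod1, a lysyl hydroxylase, by 0.72 (edgeR adjusted p = 0.0257 and 0.0269), and the other called members were Leprel4, Loxl4, P4hb, Lepre1 and Fkbp11. The median of the list was 0.48. The 40 tested genes of the endoplasmic reticulum and secretory route did not move as a group, with 2 rises, 2 falls and a median of 0.05; the chaperone gene Hspa5 fell, at 538, 472, 287 and 275 CPM (change -0.85, SE 0.10, edgeR adjusted p = 0.0197).

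Of 22 tested proteases and inhibitors 7 rose and 0 fell, and 2 of the 7 were above their endothelial level in both Fracture preparations. Timp1, an inhibitor of matrix metalloproteinases, was 213, 170, 842 and 828 CPM, a change of 2.12 (SE 0.13, edgeR adjusted p = 0.00674). Its level in endothelial cells was 21.8 and 17.0 CPM in Control and 259 and 201 CPM in Fracture, below the members in each preparation. Mmp2, a gelatinase, was 393, 352, 635 and 650 CPM, a change of 0.79 (SE 0.09, edgeR adjusted p = 0.0191). Adamts1 and Adamts4, proteases that cut proteoglycans, changed by 2.79 and 2.46 (edgeR adjusted p = 0.00674 and 0.00688) but were lower in members than in endothelial cells. Endothelial cells held 418 and 264 CPM of Adamts1 in Control and 259 and 266 CPM in Fracture. All kept cells together held 57.5, 45.4, 65.1 and 65.3 CPM, so its endothelial level is not a measure of free RNA alone. Mmp13 was 153, 72.6, 157 and 94.99 CPM and did not pass (change 0.15, SE 0.40, edgeR adjusted p = 0.866). Its UMIs were concentrated in single cells, of which the 3 richest held 63.7% and 80.2% of its UMIs for Control and 69.5% and 38.3% for Fracture.

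Immediate early and stress response genes were the list with the highest share of calls, with 18 of 27 tested genes rising, 1 falling and a median of 1.56. Zfp36, whose protein destabilises messenger RNAs of cytokines, was 102, 99.1, 520 and 487 CPM, a change of 2.33 (SE 0.08, edgeR adjusted p = 0.00372). Socs3, an inhibitor of cytokine signalling, was 53.0, 82.9, 586 and 505 CPM, a change of 3.01 (SE 0.24, edgeR adjusted p = 0.00844). Atf3, a stress-induced transcription factor, was 19.9, 43.2, 314 and 340 CPM, a change of 3.39 (SE 0.38, edgeR adjusted p = 0.0191). Jun, a subunit of the AP-1 transcription factor, was 154, 201, 889 and 840 CPM, a change of 2.28 (SE 0.15, edgeR adjusted p = 0.00674).

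Of the 18 genes that rose, 10 were higher in members than in endothelial cells in both Fracture preparations. Endothelial cells of Control and Fracture had 898 and 621 against 937 and 955 CPM of Jun and 272 and 123 against 220 and 230 CPM of Zfp36. For Socs3 they had 129 and 88.0 against 296 and 301 CPM, and for Atf3 45.3 and 14.7 against 128 and 141 CPM. These genes also respond to the digestion of tissue, whose part was not tested. The same list had 16 rises and 2 falls in Dmp1-low osteoblasts, where 521 of 12815 genes (4.07%) were called. Inflammatory and iron-related genes had 5 rises and 0 falls among 21 tested, and 1 of the 5 was above its endothelial level in both Fracture preparations. Nfkbia, the inhibitor of NF-kappa-B, was 76.0, 63.7, 210 and 203 CPM, a change of 1.56 (SE 0.12, edgeR adjusted p = 0.00759), against 526 and 579 CPM in Fracture endothelial cells. Saa3, an acute-phase protein gene, had 1 UMI in Control members and 38 in Fracture members, a ratio of 55.9 per UMI sequenced with a counting interval of 9.44 to 2263.

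Of 20 tested genes of glycolysis and hypoxia 4 rose and 0 fell, and 1 of the 4 was above its endothelial level in both Fracture preparations. They included Hk2, the hexokinase of the first step of glycolysis, at 10.2, 16.0, 47.1 and 56.6 CPM (change 2.00, SE 0.24, edgeR adjusted p = 0.0231) and Slc16a3, a lactate transporter, at 1.48, 1.599, 7.32 and 6.89 CPM, below the 22.0 and 19.9 CPM of Fracture endothelial cells. Of 41 tested genes of oxidative phosphorylation 0 were called by edgeR, and their median change was 0.06. Of 10 tested genes that couple osteoblasts to osteoclasts 0 were called by edgeR. Tnfrsf11b, the decoy receptor that blocks osteoclast formation, was 14.0, 12.3, 15.8 and 11.8 CPM and overlapped between the groups. Tnfsf11, which encodes the osteoclast differentiation signal, was too low to test, with 7 Control and 20 Fracture UMIs. Igf1, a growth factor of bone, was 2.55, 0.228, 4.98 and 4.43 CPM, from 19 and 1 UMIs in Control and 17 and 18 in Fracture, with a change of 1.53 that did not pass (SE 0.73, edgeR adjusted p = 0.280) and that was 4.18 without Control-1, where it passed, and 0.87 without Control-2. Igf2, with 24 Control and 10 Fracture UMIs, was not tested.

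Of 17 tested interferon-related genes 4 fell (Psmb8, H2-D1, H2-K1 and B2m) and 0 rose, with a median of -0.29. The class I genes H2-D1 (864, 934, 389 and 362 CPM) and H2-K1 (594, 508, 253 and 227 CPM) changed by -1.26 and -1.20 (edgeR adjusted p = 0.00701 and 0.0130). H2-Q7, of the same region, was 83.8, 76.8, 21.1 and 17.0 CPM, a change of -2.08 (SE 0.14, edgeR adjusted p = 0.00701). B2m, the partner chain of class I molecules, changed by -0.69 (edgeR adjusted p = 0.0256). H2-D1 was 1933 and 2164 CPM in Control and 1745 and 1626 CPM in Fracture endothelial cells, above the members. All kept cells together held 1204 and 1342 CPM in Control and 381 and 365 CPM in Fracture. The class I genes have near-identical copies, and how reads shared between them were counted is not settled.

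Among genes with a mean of at least 20 CPM, markers of other cell types left aside, the largest rises were those of Rbp4, Col3a1, Atf3, Fmod, Peg3, Socs3, Adamts1, Aebp1, Plekhg2 and Thbs2. Rbp4, a carrier of retinol, was 11.8, 5.48, 164 and 174 CPM, a change of 4.25 (SE 0.36, edgeR adjusted p = 0.0105), and endothelial cells of Fracture held 164 and 115 CPM. Col3a1 was 17.9, 19.9, 306 and 264 CPM, a change of 3.92 (SE 0.13, edgeR adjusted p = 0.00372), against 854 and 591 CPM in Fracture endothelial cells. Thbs2, a matricellular thrombospondin, was 20.8, 14.4, 111 and 103 CPM (change 2.59, SE 0.20, edgeR adjusted p = 0.00759) and stayed above its endothelial level of 44.3 and 29.3 CPM. The largest falls were those of Itga2b, a platelet integrin that is on none of the marker lists and reached this level through 1 cell of Control-2, Limch1, H2-Q7, Btla, Erdr1, Tnc, Srgn, Il12a, Txnip and Wif1. Il12a, a cytokine subunit gene, was 53.2, 55.0, 17.3 and 18.0 CPM, a change of -1.62 (SE 0.11, edgeR adjusted p = 0.00688), and at most 1.49 CPM in endothelial cells. Btla, known as an inhibitory receptor of lymphocytes, was 41.1, 29.2, 9.66 and 7.38 CPM, a change of -2.05 (SE 0.24, edgeR adjusted p = 0.0216), with at most 1.10 CPM in endothelial cells.

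**Figure D4:**
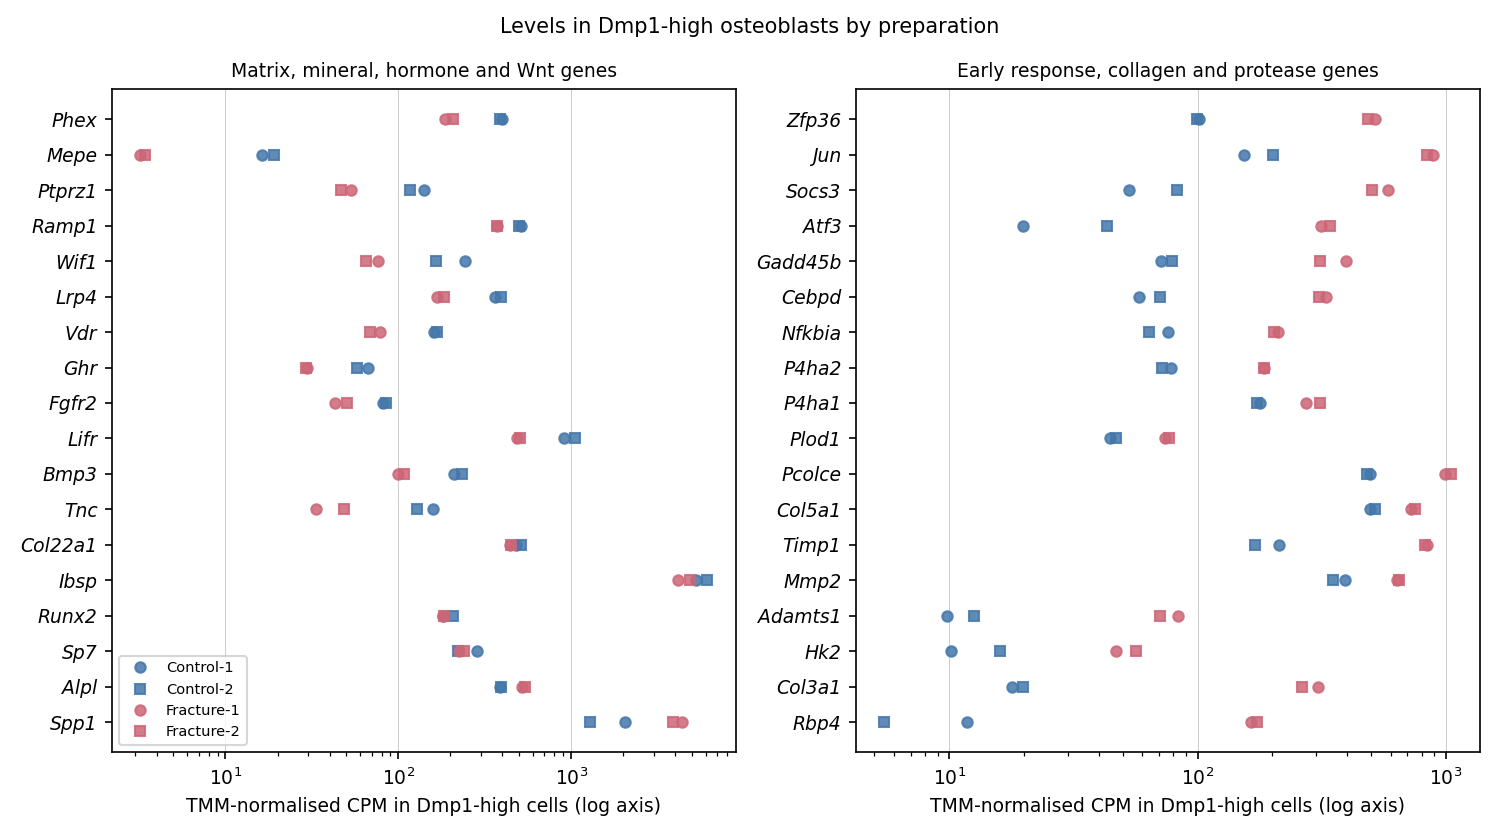
TMM-normalised CPM (log axes) of 36 genes in Dmp1-high osteoblasts, with 1 point per preparation (circles, preparation 1; squares, preparation 2; blue, Control; red, Fracture). In the left panel Phex, Mepe, Ptprz1, Wif1, Lrp4, Vdr and Tnc lie further left in Fracture (Phex 187 and 207 against 397 and 388 CPM) while Runx2 and Sp7 overlap; in the right panel the Fracture points of each gene lie to the right.

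Genes of other cell types were measured in the members too. Of 15 tested chondrocyte genes 9 rose and 0 fell, among them Col9a3 (20.1, 10.3, 157 and 129 CPM), Col9a2, Ucma and Sox9, with a median of 2.22. The 9 include Acan and Matn3, which the member rule limits, so the count and the median rest in part on values the rule used. Col2a1, a cartilage collagen gene that was not among the 9, was lower in Fracture. Without TMM scaling it was 3751 and 3619 CPM in Control members and 2652 and 2030 CPM in Fracture members. Endothelial cells of the Fracture preparations held 996 and 973 CPM of Col9a3, and 0 of the 9 genes was above its endothelial level in both of them. The endothelial cells had no limit on cartilage genes and the members had one, so this comparison rests in part on the rule. The summed level of the 16 chondrocyte markers was 8903 to 9530 CPM in Control and 9044 to 10315 CPM in Fracture members, and 1923 to 3363 against 23076 to 23270 CPM in endothelial cells. S100a8 and S100a9, genes of neutrophils, were called as rising, but 1 cell held 96.5% and 96.6% of the S100a8 UMIs in Fracture-1 and Fracture-2, and 96.4% and 97.9% of those of S100a9. Likewise 1 cell held 94.3% of the Itga2b UMIs of Control-2, where the level without the 3 richest cells was 3.02 CPM in place of 68.2 CPM. Pf4, another platelet gene, was 114, 35.4, 4.39 and 3.69 CPM in members and 226, 157, 16.8 and 18.0 CPM in endothelial cells. Of 4 tested osteoclast markers 2 rose. Acp5, the acid phosphatase of osteoclasts, was 6.04, 7.31, 24.9 and 19.9 CPM (change 1.75, SE 0.21, edgeR adjusted p = 0.0216), above its endothelial level of 5.97 and 4.93 CPM in Fracture. Nfatc1, a transcription factor of osteoclasts, was 12.6, 13.7, 31.04 and 32.7 CPM (change 1.28, SE 0.13, edgeR adjusted p = 0.0159), below its endothelial level in each preparation. After thinning the calls of Acp5 and Nfatc1 were lost (changes 1.90 and 1.51, edgeR adjusted p = 0.124 and 0.257). Dcstamp was at 0 in the members, and the summed level of the 10 markers was 182 to 201 CPM in Control and 253 to 270 CPM in Fracture. The summed endothelial markers stayed between 47.4 and 108 CPM in members, against 7024 to 9133 CPM in endothelial cells.

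The summed haemoglobin and other red cell markers were 66.2, 283, 1541 and 1757 CPM in members and 913, 290, 3728 and 3707 CPM in endothelial cells, and 0 of 8 tested genes were called by edgeR. The summed blood cell markers were 901, 96.5, 248 and 388 CPM, with Control-1 the highest. The part of free or neighbouring RNA in the changes above was not tested.

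The change of Fracture over Control, called the fracture effect here, was compared between Dmp1-high and Dmp1-low osteoblasts. For this a class-by-group term was fitted to both classes with the preparation as a block. Of 12336 genes tested 77 (0.624%) had a fracture effect that differed between the classes, 53 more positive and 24 more negative in Dmp1-high cells. Without the preparation block 0 genes were called by edgeR, with 498 at an unadjusted p under 0.05. The bulk of the genes that changed in members therefore carried no call of a difference from Dmp1-low cells, which does not show that they changed alike. The term for Phex was -0.19 (SE 0.08, edgeR adjusted p = 0.541), for Mepe -0.95 (SE 0.39, edgeR adjusted p = 0.518) and for Socs3 0.07 (SE 0.16, edgeR adjusted p = 0.962). Of 27 immediate early and stress genes Jun, Klf4 and Klf6 were called as differing, with a term of 0.39 for Jun (SE 0.06, edgeR adjusted p = 0.00815). The term was 0.34 for Timp1, -0.37 for H2-D1 and -0.33 for H2-K1 (edgeR adjusted p = 0.0157, 0.00775 and 0.0195).

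Type I collagen was among the genes whose effect differed between the classes. The log2 fracture effect on Col1a1 was 0.28 in members and -0.01 in Dmp1-low cells, a difference of 0.30 (SE 0.02, edgeR adjusted p = 4.23e-05). For Col1a2 the effects were 0.53 and 0.26, a difference of 0.27 (SE 0.03, edgeR adjusted p = 0.000238). The fracture effect itself did not pass in either class for either gene, with edgeR adjusted p = 0.466 and 0.993 for Col1a1 and 0.170 and 0.694 for Col1a2. P4ha2 differed in the same direction by 0.57 (SE 0.09, edgeR adjusted p = 0.00611). Spp1 had effects of 1.31 in members and 2.04 in Dmp1-low cells, with a term of -0.83 (SE 0.14, edgeR adjusted p = 0.0114). The effect in Dmp1-low cells did not itself pass (edgeR adjusted p = 0.0873). Effects come from a fit of each class and terms from a fit of both, so they need not subtract exactly. In Fracture the Spp1 level of Dmp1-low cells was close to the endothelial level given above. The part of free RNA in this term was not tested.

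Errfi1, a feedback inhibitor of the epidermal growth factor receptor, had effects of 2.27 in members and 0.93 in Dmp1-low cells (difference 1.32, SE 0.12, edgeR adjusted p = 0.000143). Col3a1 had effects of 3.92 and 2.60 (difference 1.26, SE 0.17, edgeR adjusted p = 0.00341). Without TMM scaling it was 18.9 and 19.9 CPM in Control members against 55.9 and 93.8 CPM in Dmp1-low cells. In Fracture it was 303 and 248 against 577 and 357 CPM, so members stayed lower. Fracture endothelial cells held 854 and 591 CPM, above both classes. For Lrp4 and Lifr the effect was more negative in members, by -0.34 in both (SE 0.07 and 0.05, edgeR adjusted p = 0.0377 and 0.00611). Tnc fell by 1.81 in members and by 0.61 in Dmp1-low cells (difference -1.19, SE 0.17, edgeR adjusted p = 0.00483), and Limch1 differed by -1.37 (SE 0.25, edgeR adjusted p = 0.0245). H2-Q7 differed by -0.87 (SE 0.14, edgeR adjusted p = 0.00796).

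The most negative terms belonged to Mmp13 and Col10a1, both known from hypertrophic cartilage. Mmp13 was 162 and 72.6 CPM (plain CPM, as below) in Control members against 34.3 and 9.91 CPM in Dmp1-low cells, and 155 and 89.3 against 156 and 210 CPM in Fracture. The term was -2.94 (SE 0.28, edgeR adjusted p = 0.000176). Without its 3 richest cells in each preparation, Mmp13 was 59.5, 14.8, 48.1 and 55.6 CPM in members. In endothelial cells Mmp13 was 32.7 and 42.7 CPM in Control and 361 and 373 CPM in Fracture, above either class in Fracture. It was found in 31.4% and 35.4% of Fracture endothelial cells and in 32.9% and 35.1% of Fracture Dmp1-low cells. The part of free RNA in the Mmp13 term was not tested. Col10a1 was 215 and 8.67 CPM in Control members and 27.4 and 11.02 CPM in Dmp1-low cells, and 518 and 307 against 749 and 431 CPM in Fracture, with a term of -2.80 (SE 0.41, edgeR adjusted p = 0.00483). With the Dmp1 limit set per 10000 UMIs the Col10a1 term was called in the other direction, at 0.79 (edgeR adjusted p = 0.0102), and after thinning it was 0.37 (edgeR adjusted p = 0.914), so its direction depends on how the members are chosen. In Control-1 3 members held 89.4% of its UMIs, and without them the level was 23.2 CPM. In Fracture endothelial cells Col10a1 was 2639 and 2621 CPM, above either class.

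**Figure D5:**
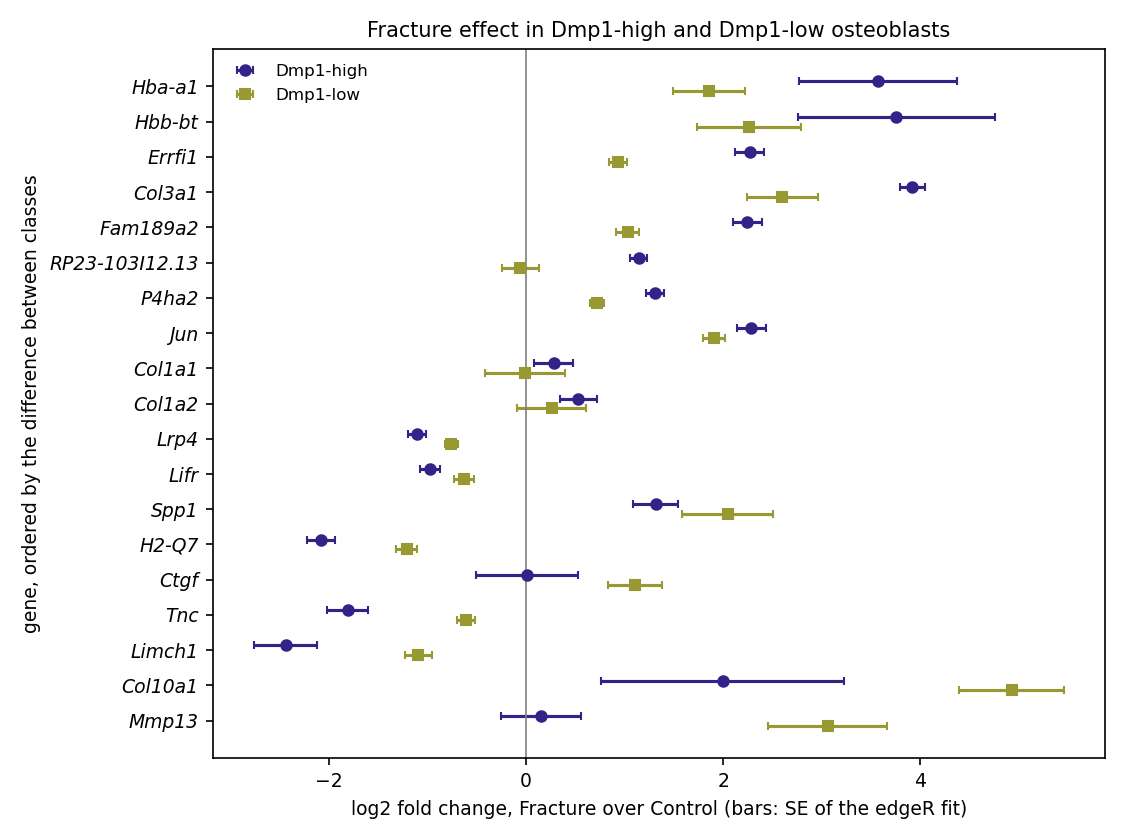
Log2 fold change of Fracture over Control (horizontal axis) for 19 genes in Dmp1-high (circles) and Dmp1-low osteoblasts (squares), with bars for the SE of the edgeR fits, ordered by the class-by-group term. Errfi1 (2.27 against 0.93) and Col3a1 (3.92 against 2.60) lie further right in Dmp1-high cells, and Tnc, Limch1 and Mmp13 further left.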

How the data were processed

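Single-cell libraries of stromal cells of the femur, made with the Chromium 3 prime v3 kit, were analysed. The authors deposited UMI counts for each gene in each cell, from reads placed on mm10 with STAR 2.7.3a. The submitters' processing notes also name bcl2fastq 2.19.1.403, UMI-tools 1.0.0 and featureCounts 1.6.4, while the published methods name STARsolo and GENCODE M23; which of them counted these tables is not settled. No normalisation had been applied.

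The members, gene lists and tests were chosen with earlier results of these data known. The tables held 28956 genes and 48903 barcodes, of which 45328 passed the filters. UMI counts were summed over the members of each preparation and tested with edgeR 4.0.16 (quasi-likelihood, TMM, filterByExpr, Benjamini-Hochberg adjustment), with DESeq2 1.42.0 as an alternative. Alternatives changed the scaling, the filter on low counts, the block, the member limits, doublets, depth and the preparations kept. The class-by-group term used the preparation as a block. Shares were compared by 2-sided exact permutation tests (scipy 1.17.1). Scrublet, run in scanpy 1.11.5, called 722 cells (1.59%), 26 of them members; they were kept in the main analysis, and in 2 libraries it marked too few cells to be taken as working. Floors were 3 counts, and intervals cover counting error only. Named genes were, from each of 33 lists, up to 6 called genes with the largest change, a set of bone genes whatever their result, the 10 largest rises and falls outside the markers of other cell types with a mean of at least 20 CPM and groups that did not overlap, the 6 largest class-by-group terms in each direction, and the 10 genes highest in members over Dmp1-low cells. Sox9, Col2a1, P4hb, Lepre1, Fkbp11, Dcstamp, the genes lower in members than in Dmp1-low cells and those of cells outside the rule were named after their values were seen. Of 129 named genes, 123 had coordinates in GENCODE M21 (GRCm38). The edgeR fits of the group change and of the class-by-group term were first run on simulated counts with known changes.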

Additional observations from a re-analysis of the deposited data

Results flagged for a closer look

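Dmp1, Phex, Mepe and Col22a1 levels and the share of members were looked at across the 4 libraries of each group (10 groups of values), and none had a library far from the others. Other genes were not looked at in this way. The 12 genes below were picked out because the effect of fracture differed between Dmp1-high and Dmp1-low osteoblasts by the class-by-group term of edgeR, given as the log2 effect in Dmp1-high minus that in Dmp1-low cells. The term was positive for Hba-a1 (1.90) and Hbb-bt (1.67), which encode haemoglobin chains, and 3 cells in each Fracture preparation held 84.9% to 85.6% of the members' UMIs of both. It was also positive for Errfi1 (1.32), Col3a1 (1.26), Fam189a2 (1.19) and the transcript RP23-103I12.13 (1.16), whose level in members was 69.0 and 72.4 CPM in Control and 155 and 157 CPM in Fracture. It was negative for Mmp13 (-2.94) and Col10a1 (-2.80), and for Limch1 (-1.37), Tnc (-1.19), Ctgf (-1.13) and H2-Q7 (-0.87). Ctgf, a matricellular protein gene, was 45.1, 15.8, 38.7 and 23.6 CPM in members, so its groups overlapped there. Without the preparation block 0 of the 12 terms were called by edgeR. After thinning to 5000 UMIs 5 of the 12 kept direction and call (Col3a1, Errfi1, Mmp13, RP23-103I12.13 and Tnc), 6 kept the direction only and Col10a1 changed sign.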

How the results depend on the processing

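The gap in the share of Dmp1-high cells among Bglap-high osteoblasts was positive under each alternative tried: 12.2 percentage points with a Dmp1 limit of 3 UMIs per 10000, 5.96 with at least 6 Dmp1 UMIs, 8.74 with the stricter osteocalcin limit, 8.63 after thinning, and 9.16 to 9.45 without 1 preparation. The share of all kept cells, which has another denominator, differed by 0.0574 points, and there the groups overlapped. The 460 genes called between the groups became 1852 with no filter on low counts, 296 with at least 6 Dmp1 UMIs, 138 of 5522 after thinning, and 0 to 2309 without 1 preparation (1693 and 2309 without Control-1 and Control-2, 0 without either Fracture preparation), and 365 with library size alone, a scaling added after seeing the data that moved the median of all genes to -0.10 and the split to 203 rises and 162 falls. With the replicate block 305 genes were called, but same-numbered preparations share only a number: their deviations correlated at 0.0546 over genes. The 77 class-by-group calls became 255 with no filter, 0 with no replicate block, 163 with Dmp1 per 10000, and 42 to 254 without 1 preparation (254 and 182 without Control-1 and Control-2, 50 and 42 without Fracture-1 and Fracture-2). Of 105 named genes that were called, 100 kept direction and call with DESeq2, 97 without doublets and 52 of 89 after thinning. Changes of sign, with the cause not tested, were these log2 values. Ctgf was -0.00997 with no filter, -0.0938 with library size alone, -0.56 to 0.96 without 1 preparation, -0.23 per 10000, -0.39 at 6 UMIs and -0.65 thinned. Mmp13 was -0.29 to 0.78 without 1 preparation, -1.17 per 10000, -1.51 at 6 UMIs, -0.46 with the stricter cartilage limit, -0.51 without doublets and -1.39 thinned. Tnfrsf11b was -0.0336 with library size alone, -0.15 to 0.27 without 1 preparation, -0.27 per 10000, -0.0838 at 6 UMIs, -0.19 with the stricter osteocalcin limit and -1.89 thinned. Without 1 preparation, Pdpn was -0.57 to 0.10, Runx2 -0.18 to 0.0153 and Sp7 -0.29 to 0.0677. S100a9 was -0.0231 per 10000, and the Col10a1 class term 0.79 per 10000, where it was called, and 0.37 thinned. Other called genes of the text that lost the call in 3 or more alternatives were Loxl4 (9 of 11), Alpl (5), Srgn (4), Col9a2, Klf4 and Erdr1 (3 each), Ets2 (6 of 10), Fzd2 (5), Ephb2, H19 and Psmb8 (3 each) and Itga2b (3 of 9). With 2 preparations per group and shallower Fracture members, genes of few UMIs such as Sost and Fgf23 could not be compared at this depth.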

Other observations

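Further gene groups were measured in Dmp1-high osteoblasts. Of 18 tested transcription factors of the osteoblast lineage, Klf4 (232, 203, 331 and 357 CPM in Control-1, Control-2, Fracture-1 and Fracture-2) and Ets2 rose and 0 fell. Of 18 tested genes of lipid and fat cell biology 3 rose and 1 fell, with Cebpd at 57.9, 70.8, 329 and 309 CPM (log2 change 2.31, SE 0.13, edgeR adjusted p = 0.00674) and Cebpb at 71.9, 63.0, 136 and 143 CPM; both were above their endothelial level in Fracture. Cytoskeletal and adhesion genes went both ways, with 2 rises and 2 falls among 26 tested. Tpm1, a tropomyosin, was 946, 1080, 578 and 572 CPM (log2 change -0.82, SE 0.09, edgeR adjusted p = 0.0197), and Vim, an intermediate filament gene, was 510, 464, 983 and 918 CPM but 6390 and 6362 CPM in Fracture endothelial cells.

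Of 25 tested cell cycle genes 1 was called (4%, against 4.35% of all genes tested). This was Cdkn1c, an inhibitor of the cycle, which rose from 12.2 and 9.82 to 31.3 and 27.6 CPM. Endothelial cells held more of it, with 242 and 287 CPM in Control and 206 and 222 CPM in Fracture. All kept cells together held 155 and 109 CPM in Control and 481 and 447 CPM in Fracture. Of 12 tested genes of insulin-like growth factor signalling 3 rose (Igfbp6, H19 and Igfbp7), each below its endothelial level in both Fracture preparations. Of 16 tested semaphorin and axon guidance genes 1 was called (6.25%, against 4.35% of all genes tested). This was Ephb2, which rose, at 2.01, 2.51, 7.91 and 7.38 CPM.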
